A study of Homo sapiens with 6 samples.

Results

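The α2-macroglobulin genes A2M and A2ML1 and the antisense transcript A2M-AS1 were followed in MCF10A cells grown with and without growth factors. These 3 genes were chosen by their measured difference between the conditions, which had already been seen, and were taken by name from the 19198 genes of the expression table. Their values are therefore given as a description, sample by sample, with no test. MCF10A is an immortalized, non-tumorigenic human mammary epithelial cell line with basal-like features. RNA-Seq of rRNA-depleted total RNA was available for 6 samples. The 3 control samples were grown in complete medium with insulin, EGF, cholera toxin and hydrocortisone, and the 3 depleted samples were grown without these 4 factors. Both groups received the same base medium with horse serum and antibiotics. The comparison belongs to a model in which withdrawal of these factors is used to bring about an epithelial to mesenchymal transition (EMT) without added TGFβ. Removal of the 4 factors was not separated, so an effect of 1 factor alone, such as the steroid, cannot be told apart from that of the others.

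α2-macroglobulins are large secreted inhibitors that trap proteases of nearly every class. A protease cuts an exposed bait region, the inhibitor folds around it, and the complex is cleared by the endocytic receptor LRP1. A2M is a major plasma protein made in liver and also by endothelial cells, fibroblasts and other stromal cells, and it also binds growth factors and cytokines. A2ML1 is a related inhibitor of stratified epithelia and is best known from the upper layers of the epidermis. A2M-AS1 is a long non-coding RNA read from the strand opposite to A2M.

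In hg38, with Gencode v44 gene models, the 3 genes lie on chromosome 12. A2ML1 (ENSG00000166535.18) lies on the plus strand from 8822621 to 8887001. A2M-AS1 (ENSG00000245105.2) lies on the plus strand from 9065163 to 9068689, 178.2 kb beyond the end of A2ML1. A2M (ENSG00000175899.13) lies on the minus strand from 9067664 to 9116229. A2M-AS1 starts 2501 bases beyond the 3′ end of A2M and runs into it, so the gene spans overlap over 1026 bases (9067664 to 9068689). Within the overlap 561 bases are exonic in both genes, which is 8.88% of the exonic bases of A2M and 19.0% of those of A2M-AS1. The libraries were strand-specific, while the strand setting used for counting is not given in the sources used here. The table lists 96 genes that lie wholly inside exons of the opposite strand, and 53 of them have a mean of at least 10 normalized counts. Reads in the shared 561 bases may therefore be assigned by strand, but this could not be settled for the overlap itself. Of the 100-base windows along the exons, 1 of 6688 in A2M was shared with the same strand of another gene (its relative PZP), against 0 of 7202 in A2ML1 and 0 of 3090 in A2M-AS1.

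The start regions of A2ML1 and A2M-AS1 are shown because these genes differed between the conditions in opposite directions. Counts per gene do not show which start site was used. Each sequence runs from 250 bases before to 50 bases after a RefSeq start site, in GRCh38.p14, on the plus strand. Capitals mark the only match to the motifs searched. The A2ML1 region is chr12:8822371-8822670 and has a GC content of 49.7%, and the A2M-AS1 region is chr12:9064927-9065226 with 73.7% GC.
A2ML1: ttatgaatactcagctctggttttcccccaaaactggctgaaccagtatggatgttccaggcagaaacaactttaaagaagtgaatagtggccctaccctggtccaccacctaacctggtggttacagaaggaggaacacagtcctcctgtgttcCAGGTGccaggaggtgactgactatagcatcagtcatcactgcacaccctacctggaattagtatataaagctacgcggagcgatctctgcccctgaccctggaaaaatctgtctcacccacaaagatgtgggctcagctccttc
A2M-AS1: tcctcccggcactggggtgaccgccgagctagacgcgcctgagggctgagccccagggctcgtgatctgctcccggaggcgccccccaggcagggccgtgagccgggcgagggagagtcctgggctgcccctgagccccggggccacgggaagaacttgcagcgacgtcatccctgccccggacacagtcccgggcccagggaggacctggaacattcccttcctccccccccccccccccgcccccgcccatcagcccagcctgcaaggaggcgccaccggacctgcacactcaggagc
The motifs searched on both strands were the E-box CAGGTG, the RUNX core TGTGGT, the AP-1 site TGANTCA and the STAT site TTCNNNGAA. The steroid receptor half-site TGTTCT was searched in the same way, and a full steroid receptor element was not searched. The E-box match begins at position -95, counted from the A2ML1 start site. The same E-box occurs in 20.6% of the 35116 promoters of this length, the RUNX core in 13.1% and the AP-1 site in 7.71%. The STAT site occurs in 7.66% and the steroid receptor half-site in 14.8%. No match was found in the A2M-AS1 region or at a later A2ML1 start site (chr12:8844754-8845053). A match describes these letters in this window and is not evidence of binding.

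A2M was close to absent with growth factors and was detected in every depleted sample. Values are normalized counts, that is, reads per gene divided by a size factor for each sample and not by gene length. In controls A2M reached 1.3, 1.8 and 3.0 normalized counts, which are 1, 3 and 3 reads. The depleted samples had 9046.7, 251.8 and 389.1 normalized counts, from 9884, 384 and 174 reads. The groups did not overlap, and the control values lay at or below 3 reads, the smallest number treated as above 0, so their order carries no information. Depleted replicate 1 stood far above the others, 23.3 times the next sample, while depleted replicates 3 and 2 differed by 1.55 times. The mean was 1.99 ± 0.872 with growth factors and 3229 ± 5039 without (SD, n = 3 each), so the SD of the depleted group exceeded its mean.

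On the scale of log2(normalized count + 1), A2M was 8.37 higher without growth factors, against a pooled SD of 2.01 within groups. Without depleted replicate 1 this difference was 6.76. Because the control samples held 7 reads in all, the ratio is loosely fixed. The pooled ratio of depleted to control reads was 1714 (exact 95% interval 832 to 4264). It was 142 (68.6 to 356) without depleted replicate 1. Set against the pooled control reads, single depleted samples had ratios of 4551 (2208 to 11322), 127 (60.9 to 317) and 196 (93.0 to 494). These intervals cover counting error and not the spread between cultures.

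The antisense transcript differed in the same direction, at a far lower level. With growth factors A2M-AS1 stood at 6.3, 4.1 and 4.9 normalized counts (5, 7 and 5 reads), and after depletion at 59.5, 19.0 and 24.6 (65, 29 and 11 reads). The groups did not overlap, and depleted replicate 1 was again the highest. Group means were 5.10 ± 1.09 and 34.4 ± 21.9 (SD, n = 3 each), and the log2 difference was 2.38, or 1.91 without depleted replicate 1, against a pooled SD of 0.62. The pooled read ratio was 7.10 (exact 95% interval 4.23 to 12.6), and 4.20 (2.33 to 7.90) without depleted replicate 1. Depleted replicates 2 and 3 rest on few reads, so their order cannot be told apart at this depth.

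A2ML1 differed in the opposite direction. Control samples gave 4634.5, 3511.6 and 3043.7 normalized counts, and depleted samples gave 16.5, 192.8 and 158.8. The control samples lay within 1.52 times of each other, and the lowest of them was far above the highest depleted sample. Depleted replicate 1, the sample richest in A2M, was the poorest in A2ML1, with 18 reads against 294 and 71 in depleted replicates 2 and 3. The depleted samples retained 0.442%, 5.17% and 4.26% of the control mean. Means were 3730 ± 818 and 123 ± 93.5 (SD, n = 3 each), a ratio of 30.4 of control to depleted. On the log2 scale A2ML1 fell by 5.49, against a pooled SD of 1.38, and by 4.38 without depleted replicate 1. The pooled read ratio of control to depleted was 29.1 (26.2 to 32.2), and 19.6 (17.7 to 21.8) without that sample.

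**Figure D1:**
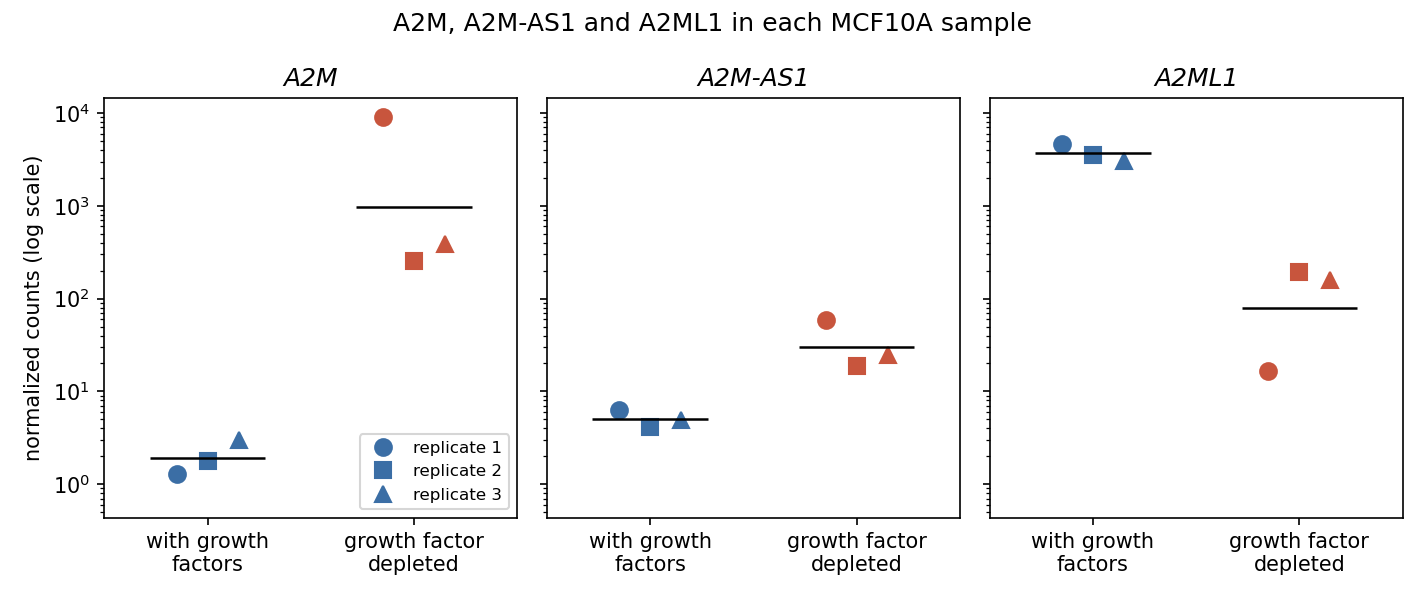
Normalized counts (log scale) of A2M, A2M-AS1 and A2ML1 in 3 samples with growth factors (blue) and 3 without (red); symbols mark the replicate number and bars the geometric mean. A2M was 1.3 to 3.0 against 251.8 to 9046.7, and A2ML1 was 3043.7 to 4634.5 against 16.5 to 192.8, with depleted replicate 1 at the extreme in each panel.

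These differences are the readout by which the 3 genes were chosen, so nothing is read from how many of them changed. For scale, 4.36% of the 16988 genes tested were called higher without growth factors and 1.97% were called lower, 6.33% in all. The groups did not overlap in 13.5% of genes in the higher direction and in 12.1% in the lower. A call was an adjusted p under 0.05 in limma and at least a 2-fold change. At the same thresholds edgeR called 971 and DESeq2 called 2112 of these 16988 genes, against 1076 in limma. Counts of DESeq2 calls in a list therefore stand against a larger share than those of limma. No share over all genes is given for an unadjusted p under 0.05. The median log2 difference over all tested genes was -0.03, in values already centred by size factors. In bulk RNA, fewer cells that express a gene and less RNA per cell cannot be told apart.

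The balance between the 2 inhibitor transcripts differed between the conditions in each sample. Divided by the length of the canonical transcript in kb, A2ML1 stood at 904, 685 and 594 normalized counts per kb in the control samples, and A2M at 0.272, 0.381 and 0.640. In the depleted samples A2M stood at 1962, 54.6 and 84.4 per kb and A2ML1 at 3.21, 37.6 and 31.0. A2M made up 0.0301%, 0.0556% and 0.108% of the sum of both genes with growth factors and 99.8%, 59.2% and 73.2% without. A2M was therefore the more abundant inhibitor transcript in each depleted sample, by a wide margin only in replicate 1. The sum of both genes was 904, 685 and 594 per kb in control samples and 1966, 92.2 and 115 in depleted samples. It was thus above the control range in depleted replicate 1 and below it in the others. Among 13403 protein-coding genes ordered by normalized counts per kb, A2M stood at rank 375 in depleted replicate 1 and at ranks 9447 and 8131 in replicates 2 and 3. A2ML1 stood between ranks 1334 and 1761 in the control samples and between 10184 and 12439 in the depleted samples.

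The antisense transcript did not keep a fixed share of the sense transcript. Per kb, A2M-AS1 stood at 2.14, 1.40 and 1.68 with growth factors and at 20.3, 6.49 and 8.39 without. It was 1.03%, 11.9% and 9.95% of the A2M level per kb in depleted replicates 1, 2 and 3. In depleted replicate 1 A2M was 35.9 times its lowest depleted value, whereas A2M-AS1 was 3.13 times its lowest. In the control samples A2M-AS1 exceeded A2M, on 17 against 7 reads in all.

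**Figure D2:**
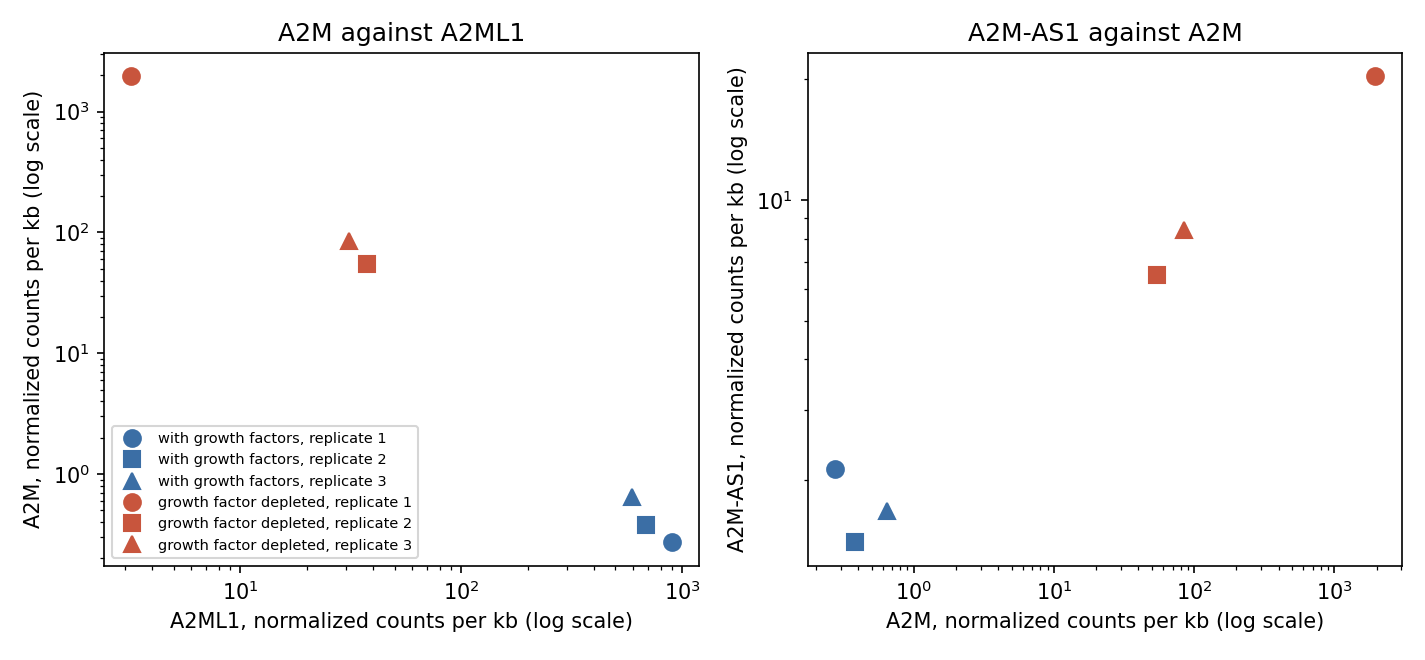
Normalized counts per kb of canonical transcript, on log scales, for A2M against A2ML1 (left) and A2M-AS1 against A2M (right) in each of 6 samples, blue with growth factors and red without. Control samples sit at 594 to 904 per kb of A2ML1 and under 1 of A2M, and depleted replicate 1 sits apart at 1962 of A2M and 3.21 of A2ML1.

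Other members of the α2-macroglobulin family are the complement components C3, C4A, C4B and C5 and membrane or secreted relatives. Of 8 further family genes 4 had values, and 0 of the 4 were called by limma in either direction, which so few genes cannot set apart from the 6.33% called over all tested genes. PZP, OVOS2, C4A and C4B were not analysed here. CD109, a membrane-anchored member, stood at 7787.6, 4321.8 and 9199.9 normalized counts in control and at 4482.2, 4775.9 and 3264.5 in depleted samples. Its log2 difference was -0.72 (limma, adjusted p = 0.334) and the groups overlapped. C3, the central complement component, had 32758.5, 11289.9 and 42679.3 against 14864.3, 2839.7 and 2285.1, a log2 difference of -2.45 (limma, adjusted p = 0.111). Without depleted replicate 1 the adjusted p of C3 was 0.0213, and in the other fits that left out a library it was 0.088 to 0.367. The complement component C5 had a log2 difference of -0.53 (limma, adjusted p = 0.713), and CPAMD8 had 0.83 (adjusted p = 0.655). Of these 4 genes 1 (C3) passed an unadjusted p under 0.05 in limma. At the adjusted p and fold change set for a call, edgeR called 0 and DESeq2 called 1 (C3, adjusted p = 0.0320).

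LRP1, the clearance receptor for A2M complexes, had control values of 238.1, 354.4 and 7054.4 normalized counts and depleted values of 22703.7, 5324.0 and 3394.2. The groups overlapped because control replicate 3 exceeded depleted replicates 2 and 3, and the log2 difference was 3.14 (SE 1.23, limma, adjusted p = 0.195). Without control replicate 3 the adjusted p was 0.0113, and in the other fits that left out a library it was 0.256 to 0.476. Leaving out control replicate 3 also gave 2483 calls over the whole table, against 1076 with all samples. LRP1 was highest in depleted replicate 1, as was A2M. Of the 7 receptors and chaperones listed, 6 were tested and 0 were called by limma or edgeR (against 6.33% of all tested genes in limma). LRP1 and VLDLR passed an unadjusted p under 0.05 in limma. DESeq2 called VLDLR (adjusted p = 0.0115) and not LRP1 (0.477), against 2112 calls among all 16988 genes tested. VLDLR had 95.2, 22.3 and 40.3 normalized counts in control and 151.0, 350.1 and 149.8 in depleted samples (limma, adjusted p = 0.0814). Its groups did not overlap, as in 13.5% of all tested genes in that direction. LRP2 was not analysed here.

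Proteases that α2-macroglobulins are known to trap held the most calls among the lists examined. All these lists were chosen with earlier results of these data known, so their counts and medians are a description. Of 17 listed proteases 10 had values and 9 were tested, and 5 rose (against 4.36% of all tested genes) and 4 were not called. The median log2 difference was 4.73, against -0.03 over all tested genes. MMP2, a gelatinase, rose from 132.8, 101.9 and 71.8 to 5181.4, 12237.3 and 11624.7 normalized counts (log2 difference 6.50, SE 0.41, limma, adjusted p = 3.24e-04). ADAMTS12, a metalloprotease known to cleave A2M, rose from 0, 4.7 and 3.9 to 1929.4, 1417.5 and 1198.5 (limma, adjusted p = 4.97e-04). For both genes each control value was far below every depleted value. Of the depleted samples, replicate 1 was lowest for MMP2 and highest for ADAMTS12.

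The plasminogen activators rose as well. PLAU, urokinase, had 426.1, 205.0 and 425.0 normalized counts in control and 9818.3, 6599.3 and 10801.8 in depleted samples (log2 difference 4.73, limma, adjusted p = 5.09e-04). PLAT, tissue plasminogen activator, had 6.3, 32.2 and 127.9 against 11383.4, 1428.0 and 2929.1 (log2 difference 6.85, adjusted p = 0.00769). Among the 5 called proteases PLAT was the one with its highest value in depleted replicate 1 by a wide margin, as for A2M. MMP1, interstitial collagenase, had 0 reads in each control sample and 6.4, 101.0 and 93.9 normalized counts in the depleted samples. Against a floor of 3 reads per control sample this was at least 23.8-fold higher (limma, adjusted p = 0.0214). The MMP1 call was lost in 4 of the 6 fits that left out a library and stood without control replicate 3 (adjusted p = 0.0279) and without depleted replicate 1 (0.00404). Of the depleted samples MMP1 was lowest in replicate 1, where A2M was highest. The values of depleted replicates 2 and 3 rest on 154 and 42 reads, so their order cannot be told apart. KLK5 and KLK7, epidermal kallikreins, and BMP1 and ADAMTS7 were not called by limma, while DESeq2 called KLK7 as lower (log2 difference -2.55 in limma, groups overlapping). MMP3, MMP9, ADAMTS5, PLG, F2, CTSG and ELANE were not analysed here.

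Of 10 growth factors and cytokines that A2M is known to carry, 7 were tested, 3 rose (against 4.36% of all tested genes) and 4 were not called. The median log2 difference was 1.62. This list too was chosen with earlier results of these data known. PDGFB, a platelet-derived growth factor chain, had 135.4, 77.3 and 48.2 normalized counts in control and 1119.4, 2697.4 and 4069.4 in depleted samples (log2 difference 4.84, limma, adjusted p = 0.00211). TGFB2 had 929.9, 502.7 and 429.9 against 1369.3, 10402.8 and 14468.8 (log2 difference 3.33, adjusted p = 0.0470). The TGFB2 call stood in 1 of 6 fits that left out a library, that without depleted replicate 1 (adjusted p = 0.00248), and the highest adjusted p among them was 0.165, without depleted replicate 2. Both genes were lowest in depleted replicate 1, the sample with the most A2M. The third called gene, IL6, lay under the level set for naming and was named after its values were seen. IL6 had 0, 2.3 and 2.0 normalized counts in control and 22.9, 35.4 and 33.5 in depleted samples (limma, adjusted p = 0.0179). The IL6 call was lost without depleted replicate 2 (adjusted p = 0.104) or 3 (0.0981).

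IL-6 acting through STAT3 is the textbook inducer of A2M in the acute phase response of rat liver, whereas human A2M is not an acute phase protein. Of 13 genes of this pathway 12 were tested, 2 rose (against 4.36% of all tested genes) and 10 were not called, with a median log2 difference of 0.29. edgeR called 2 and DESeq2 called 4 of these genes, against 971 and 2112 of all 16988 genes tested. Beside IL6, the called gene was SOCS3, a STAT3 target and feedback inhibitor, with 40.1, 51.6 and 108.2 normalized counts in control and 272.8, 291.1 and 297.4 in depleted samples (log2 difference 2.22, limma, adjusted p = 0.0227). The SOCS3 call stood in 1 of 6 fits that left out a library, that without control replicate 3 (adjusted p = 0.00421), and the highest adjusted p among them was 0.111. SOCS3 was nearly equal in the 3 depleted samples, whose A2M values spanned 35.9 times. Whether this pathway had a part in the A2M values was not tested.

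Genes expressed with A2ML1 in the upper epidermis moved in both directions. Of 20 listed, 11 had values and 10 were tested, and 3 fell (against 1.97% of all tested genes), 1 rose and 6 were not called by limma. edgeR called 4 and DESeq2 called 8 of the 10, against 971 and 2112 of all 16988 genes tested. The median log2 difference was -2.07. CSTA, the cysteine protease inhibitor cystatin A, fell from 916.1, 1649.2 and 409.2 normalized counts to 16.5, 21.6 and 29.1 (log2 difference -5.22, limma, adjusted p = 0.00157). KLK8, an epidermal serine protease, fell from 399, 399 and 80 reads to 7, 36 and 11, the library depths differing (log2 difference -3.66, adjusted p = 0.0287). SERPINB3, a protease inhibitor of squamous epithelia, had 6, 407 and 59 reads in control and 0, 2 and 0 in depleted libraries (limma, adjusted p = 0.0353). CSTA and KLK8 were lowest in depleted replicate 1, as was A2ML1. The CSTA values of the depleted samples rest on 18, 33 and 13 reads, so their order cannot be told apart. FLG, which encodes the cornified-layer protein filaggrin, rose instead, with 1, 0 and 0 reads in control and 89, 55 and 28 reads in depleted samples (limma, adjusted p = 0.00346). FLG and TGM1 (308.5, 103.6 and 196.8 normalized counts) were highest of the depleted samples in replicate 1. KLK5, KLK7, CST6 and IVL were lowest of the depleted samples there. The KLK8 call stood only without control replicate 3 (adjusted p = 0.00988) among the 6 fits that left out a library, with a highest adjusted p of 0.107. The SERPINB3 call stood without control replicate 1 (adjusted p = 0.0148) or 3 (0.0489) and not in the other 4 of these fits.

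**Figure D3:**
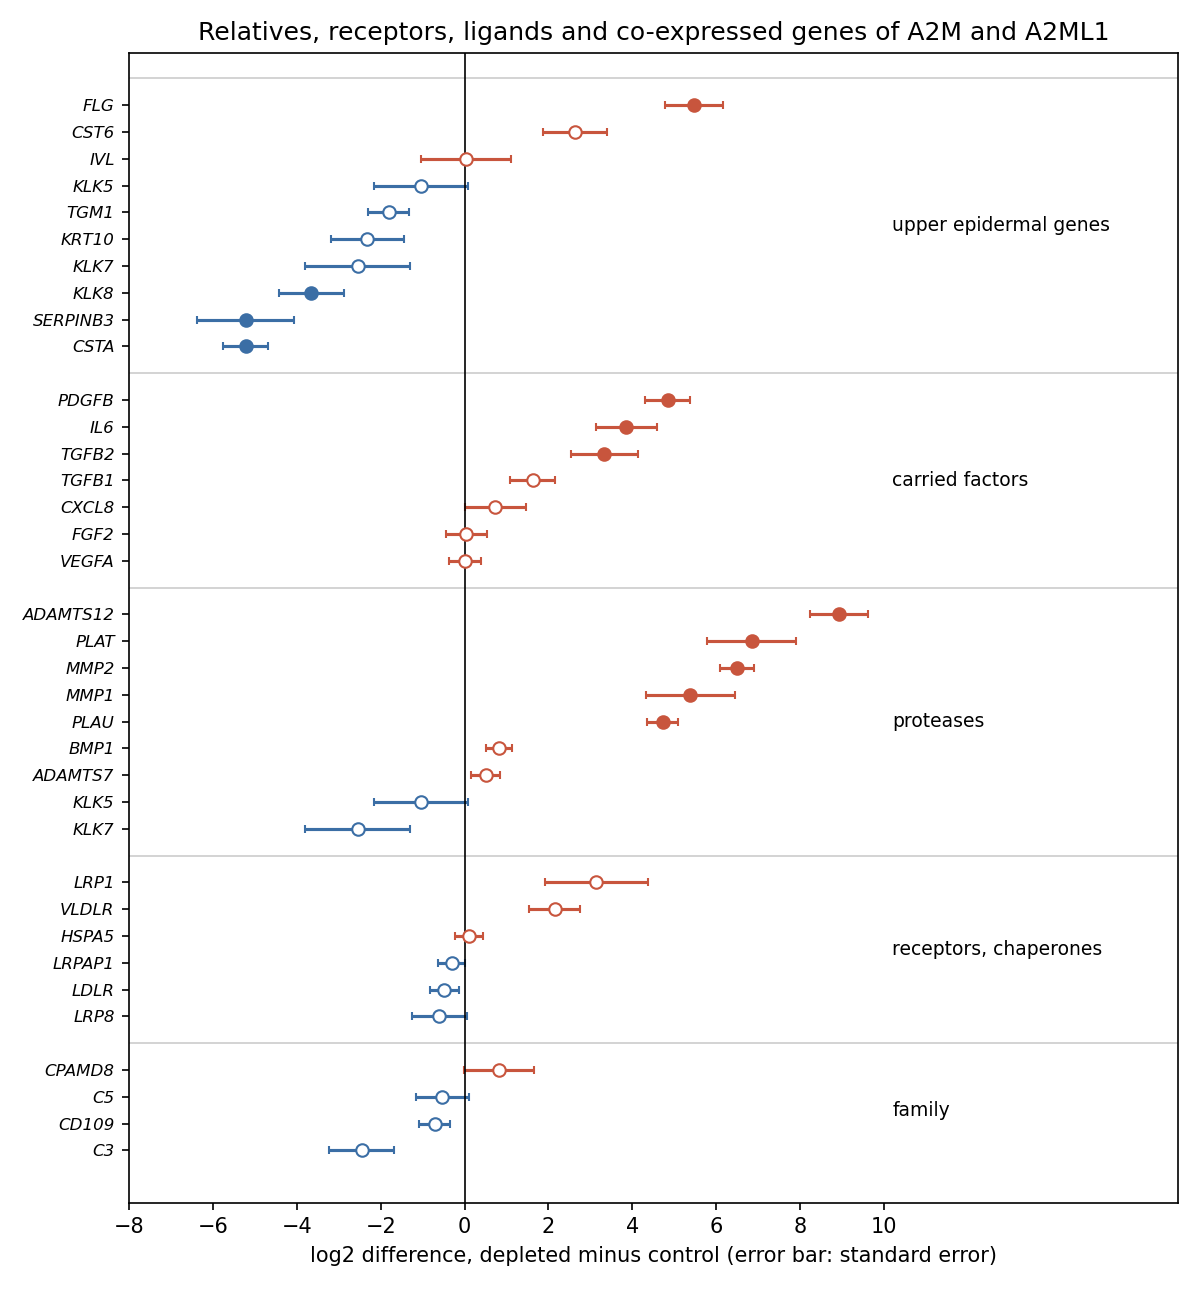
Log2 difference (depleted minus control, on log2(normalized count + 1)) with its standard error for the tested genes of 5 lists; filled points were called by limma, open points were not, red is higher and blue lower without growth factors. In the protease list 5 of 9 points are filled and to the right, in the family and receptor lists none is filled, and the upper epidermal genes run from CSTA at -5.22 to FLG at 5.47.

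Genes around the 3 on chromosome 12 were taken from the same fit. Of 10 further genes with values within 500 kb, 1 rose and 9 were not called, a share that 10 genes cannot set apart from the 6.33% called over all tested genes. The median log2 difference was 0.02. The one call was MFAP5, which encodes a microfibril-associated glycoprotein of the extracellular matrix and has its midpoint at -466 kb from the A2M start site, beyond A2ML1. MFAP5 had 1.3, 5.9 and 3.9 normalized counts in control and 807.3, 505.5 and 373.4 in depleted samples (log2 difference 6.98, SE 0.58, limma, adjusted p = 6.74e-04). PHC1 and M6PR lie between A2ML1 and A2M, together with A2M-AS1. The Polycomb gene PHC1 had a log2 difference of 1.23 (limma, adjusted p = 0.177) and M6PR, the cation-dependent mannose 6-phosphate receptor, had -0.31 (adjusted p = 0.718). RIMKLB had -0.47 (adjusted p = 0.444) and the pseudogene HADHAP2 had -0.83 (adjusted p = 0.289). Of the 6 fits that left out a library, PHC1 (adjusted p = 0.0313) and HADHAP2 (0.0347) were called only in that without control replicate 3. Groups did not overlap for MFAP5 and PHC1 in the higher direction and for DDX12P in the lower, against 13.5% and 12.1% of all genes. DDX12P (log2 difference -1.26, adjusted p = 0.252), DDX12B (-0.53), PTMAP4 (0.35), ENSG00000277952 (0.96) and ENSG00000214776 (0.93) are pseudogenes that may share reads with near-identical copies, so their values are uncertain.

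**Figure D4:**
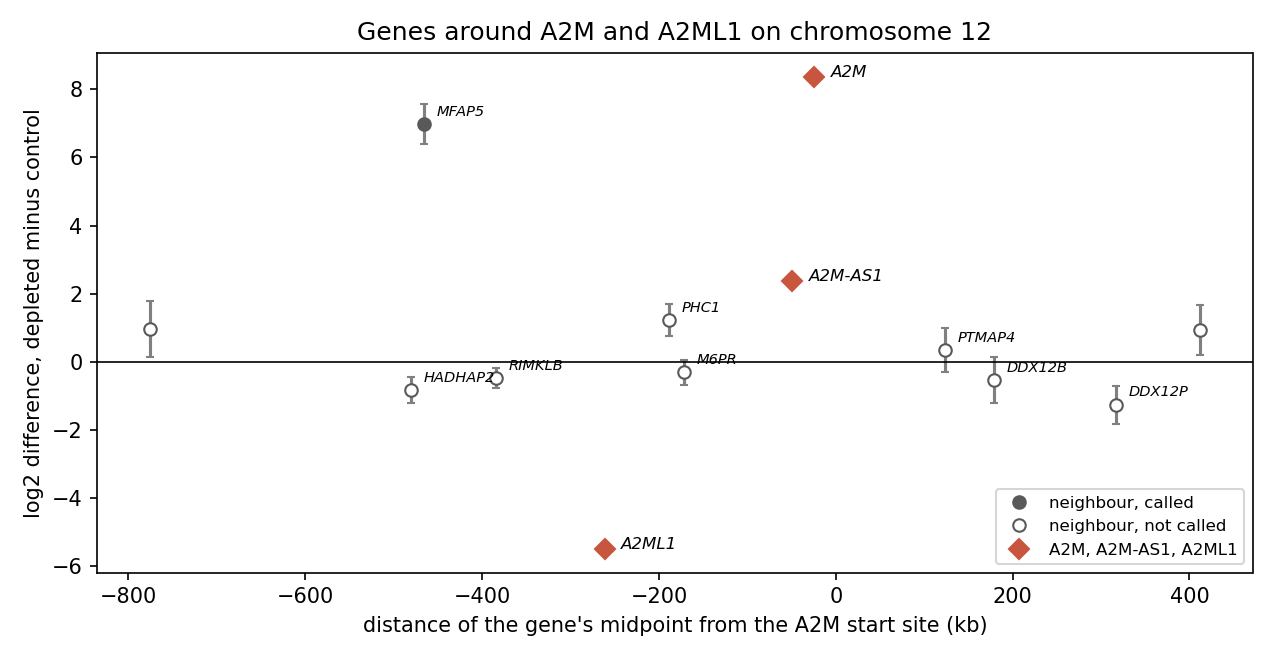
Log2 difference (depleted minus control) against the distance in kb of each gene's midpoint from the A2M start site; diamonds are A2M, A2M-AS1 and A2ML1, circles are the 10 neighbours with standard errors, filled where called by limma. A2M (8.37) and A2ML1 (-5.49) lie on opposite sides of 0, and PHC1 and M6PR between them lie at 1.23 and -0.31.

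The 6 libraries held 7472418 to 28672630 reads on genes, depleted replicate 3 being the shallowest, so that 3 reads correspond to 1.76 to 6.71 normalized counts. The labels give the cells as luminal ductal, and marker genes were set beside this. All 7 basal markers listed had values, with sums of 61348.1 to 79852.8 normalized counts in control and 49078.7 to 160641.1 in depleted samples. Of 10 luminal markers 8 had values, with sums of 9115.1 to 18675.7 in control and 18424.8 to 31712.5 in depleted samples. KRT17, the largest part of the basal sum in each depleted sample, rose from 9702.6, 16142.4 and 5881.7 to 19235.7, 61384.5 and 123479.8. It was called by DESeq2 (adjusted p = 3.76e-04) and not by limma (adjusted p = 0.0877). KRT5 stood at 562.0 in depleted replicate 1, against 10908.3 to 38503.4 in the other samples. Further markers went both ways without a limma call. KRT14 (log2 difference 2.69), KRT8 (1.10) and KRT18 (1.17) were higher without growth factors, and KRT5 (-2.04), ITGA6 (-1.15), MUC1 (-2.02) and ESR1 (-2.99) were lower. In each list limma called 1 marker, and both were lower. TP63, a basal transcription factor, fell from 270.7, 359.1 and 1615.3 to 8.2, 64.9 and 42.5 normalized counts (limma, adjusted p = 0.0270). KRT19, a luminal keratin, fell from 214.3, 111.3 and 124.0 to 30.2, 25.6 and 29.1 (limma, adjusted p = 0.0196). Each of these calls was lost in 3 of 6 fits that left out a library. That of TP63 was lost without control replicate 1 or 2 or depleted replicate 3 (highest adjusted p = 0.0668), and that of KRT19 without control replicate 1 or depleted replicate 2 or 3 (highest adjusted p = 0.0915). Markers of some cell types that make A2M in the body were also looked for, while no fibroblast or other stromal markers were listed. Of 6 hepatocyte markers APOB alone had values, between 1.0 and 13.8 normalized counts. Of 7 endothelial markers 4 had values, with sums of 167.2 to 1787 in control and 264.9 to 1610 in depleted samples, and KDR was at 0 in depleted replicate 1. CDH5 rose from 8.8, 4.1 and 4.9 to 25.6, 118.7 and 100.6 (limma, adjusted p = 0.0282), a call that stood in 2 of 6 fits that left out a library, those without control replicate 3 (adjusted p = 0.0312) and depleted replicate 1 (0.0140). CDH5 was lowest of the depleted samples in replicate 1, where A2M was highest. PECAM1 was instead highest in that sample, with 998.8, 249.0 and 91.5 normalized counts in control and 1581.6, 110.2 and 156.5 in depleted samples (limma, adjusted p = 0.939). VWF lay between 0.6 and 13.4. Of 6 leukocyte and macrophage markers 4 had values, with sums of 436.8 to 1078 and of 420.3 to 677.4, and 0 of 3 tested were called by limma, edgeR or DESeq2 or passed an unadjusted p under 0.05. Their part in the A2M values was not tested.

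The genes whose values ran most like those of each of the 3 genes were picked among 11688 candidates averaging 100 or more normalized counts, by Pearson's r of log2 values over the 6 samples. The 6 samples form separate groups by condition and depleted replicate 1 stands apart, so r is given as a description of the order of samples, with no p. Closest to A2M were EVA1A (r = 0.998), TRIB2 (0.998), PRR16 (0.995), PDGFRB (0.995) and CNPY4 (0.991). PDGFRB, the receptor for PDGF chains of the kind PDGFB encodes, had 3.8, 5.3 and 11.8 normalized counts in control and 3322.5, 348.8 and 447.2 in depleted samples. Like A2M, it was highest in depleted replicate 1 and lowest of the depleted samples in replicate 2. Closest to A2M-AS1 were HTRA1 (0.997), TBC1D2B (0.997), SMIM3 (0.993), SMARCA1 (0.992) and LPAR1 (0.992). HTRA1, a secreted serine protease, had 789.5, 533.7 and 522.4 against 7641.7, 2141.4 and 2600.4. Closest to A2ML1 were LAMA3 (0.998), NEBL (0.995), CSGALNACT1 (0.993), TRIM29 (0.993) and TMEM63C (0.993). LAMA3, a laminin chain of the epithelial basement membrane, had 12818.2, 11463.9 and 10121.6 against 1167.0, 3658.6 and 3353.9, lowest in depleted replicate 1 as A2ML1 was.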

How the data were processed

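Total RNA of MCF10A cells, 3 samples with and 3 without growth factors, was depleted of rRNA, and strand-specific libraries were sequenced as single-end reads of 100 bases. Per the methods and the submitters' processing notes, the authors trimmed reads (cutadapt 1.6), aligned them to hg38 (TopHat2), counted reads per Gencode v22 gene (HTSeq 0.6) and divided the counts by DESeq2 1.8.1 size factors in R 3.2.0. The deposited values are this normalized signal per gene, not raw counts and not divided by length. Of the values, 100% came out as whole reads within 0.1 read once divided by each sample's smallest step. No source describes how genes with very few reads were removed before deposit. The sample labels set the groups and the replicate numbers and give 3 samples per condition, although the design text gives fewer. No source says that replicates were separate cultures, so p-values measure the spread between these samples, which may be technical. Chi-square comparisons of the recovered reads found no libraries that agree within sampling noise.

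Names and coordinates came from Gencode v44, which names 18913 of 19198 identifiers. Genes averaging 10 or more normalized counts (16988) were fitted with limma 3.58.1 (R 4.3.3, trend) on log2(normalized count + 1), a scale that understates the change of low genes. Calls needed an adjusted p (Benjamini-Hochberg, over all genes tested) under 0.05 and a 2-fold change or more. On recovered reads edgeR 4.0.16 (quasi-likelihood, TMM) called 971 genes, and DESeq2 1.42.0 was a further alternative. Ratios of recovered reads carry exact conditional binomial (Clopper-Pearson) 95% intervals, and a floor of 3 reads stands for 0. Levels per kb use the Ensembl canonical transcript. Promoter sequences came from RefSeq (GRCh38.p14), with entries matched for A2ML1 and A2M-AS1.

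The 3 genes and the gene lists were chosen with earlier results of these data known. Named were the 3 genes, called list genes with at least 50 normalized counts in the mean of 1 group, all family members and LRP1, all neighbours within 500 kb, and the 5 genes most like each of the 3. Other pseudocounts, minimum means, scalings and tools, a replicate block and fits without each library were tried.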

Additional observations from a re-analysis of the deposited data

How the results depend on the processing

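The differences of A2M, A2M-AS1 and A2ML1 kept their direction under every alternative that gave a value. On the log2 scale the A2M difference (8.37) was 6.36 with a pseudocount of 10, 10.62 in edgeR and 10.66 in DESeq2, and the A2M-AS1 difference (2.38) was 1.45 with a pseudocount of 10. A minimum mean of 50 gave no value for A2M-AS1. A larger pseudocount pulls low values together by construction, and A2M and A2M-AS1 hold 7 and 17 reads in all control samples. Leaving out each library in turn gave 6.76 to 9.34 for A2M, 1.91 to 2.71 for A2M-AS1 and -6.12 to -4.38 for A2ML1, each value nearest 0 being that without depleted replicate 1. With all exonic bases as the length, an alternative chosen after seeing the data, A2M made up 99.8%, 59.7% and 73.5% of the sum of A2M and A2ML1 in the depleted samples.

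The count of called genes among the lists (13) was 8 with a minimum mean of 50 (fewer genes tested) and 23 in DESeq2, and 7 to 17 without each library, with 7 without depleted replicate 2 or 3. Over the whole table the 1076 calls were 2112 in DESeq2 and 445 to 2483 without each library, highest without control replicate 3, with 445 and 459 without depleted replicates 2 and 3, and 645 and 681 without control replicates 1 and 2. Among the neighbours the 1 call was 1 to 3 without each library, with 3 without control replicate 3. Where no construction shows the cause, the cause was not tested. Of the 13 called genes named by rule from the lists and neighbours (MFAP5 included, IL6 not), ADAMTS12, CSTA, FLG, MFAP5, MMP2, PDGFB, PLAT and PLAU passed under every alternative that gave a value, and 0 changed sign.

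With the replicate number as a replicate block, 967 genes, 16 list genes and 1 neighbour were called, the list genes with C3 (adjusted p = 0.0497), LIF (0.0144) and IL11 (0.0211) added to the 13. Same-numbered samples did not deviate together (correlations of deviations -0.0726, -0.2826 and -0.3231), so the numbers do not pair the samples. Depth limits A2M in the control samples, where 3 reads are 1.76 to 3.76 normalized counts.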

Other observations

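Acute phase genes of liver were listed because A2M belongs to this response in rat. Of 14 listed, 6 had values and 5 were tested, with a median log2 difference of -1.87 against -0.03 over all tested genes. By limma or edgeR 0 were called (against 6.33% of all tested genes in limma). In limma 2 passed an unadjusted p under 0.05, and DESeq2 called 2 (against 2112 of all 16988 genes tested). SERPINA3, which encodes the plasma inhibitor antichymotrypsin and was named after its values were seen, had control values of 47.6, 11.7 and 61.0 normalized counts and depleted values of 0, 5.9 and 4.5 (limma, adjusted p = 0.0850). Its groups did not overlap, as in 12.1% of all tested genes in that direction. SAA1, an acute phase apolipoprotein named in the same way, had 145.4, 75.0 and 46.2 against 1.8, 60.3 and 60.4, with groups that overlapped (adjusted p = 0.427). In depleted replicate 1, where A2M was highest, both genes had their lowest value. SAA2, FGG and CP were also lowest there, FGG and CP on few reads. SERPINA1 went the other way and was highest there, with 55.1, 28.7 and 91.5 in control and 184.0, 78.7 and 60.4 in depleted samples (limma, adjusted p = 0.504).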
